A study of Mus musculus with 4 samples.

Results

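The genes examined were 10 that encode enzymes and partner proteins of prostaglandin and leukotriene synthesis: Pla2g4a, Ptgs1, Ptgs2, Ptges, Ptges2, Ptges3, Hpgds, Tbxas1, Alox5 and Alox5ap. They were selected by symbol as enzymes of the pathway, by a rule that uses no measured value but was set with earlier results of these data known. All 10 were among the 22554 gene names found once in each of the deposited tables. Messenger RNA was profiled in the murine macrophage line RAW264.7, cultured by itself (mock, 2 libraries) or together with the murine colon carcinoma line CT26 (2 libraries). Replicate 1 of each group stands in a first table (pair 1) and replicate 2 in another (pair 2), so every difference was taken within a pair. The sources used here give neither the length of the coculture nor the way in which macrophages and tumour cells were separated afterwards. The libraries measure pooled RNA, so fewer cells of a kind and less RNA per cell cannot be told apart.

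Prostaglandins and leukotrienes are short-range lipid signals made from arachidonic acid. A phospholipase frees the acid from membranes, cyclooxygenases turn it into prostaglandin H2, and terminal synthases turn that into prostaglandin E2, prostaglandin D2 or thromboxane. In a separate branch, 5-lipoxygenase and its helper protein FLAP turn the same acid into leukotriene A4. Macrophages are a known source of both kinds of lipid, and cyclooxygenase-2 is the inducible step of the prostaglandin branch in these cells.

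Levels are given as FPKM, that is, fragments counted per kilobase of gene length relative to the size of the library. The step between low values put the depth at about 12200000 to 16200000 reads per library. The cells carried macrophage RNA: all 12 macrophage markers examined, among them Csf1r, Cd68 and Lyz2, had at least 1 FPKM in all 4 libraries. Epithelial markers that tumour cells could bring were near 0 in every library, with Epcam, Krt18, Krt20 and Cldn4 listed at 0 and the 9 markers summing to 0 to 0.166 FPKM. The 11 mesenchymal markers summed to 2.72 FPKM in mock 1, 1.71 in mock 2, 2.29 in coculture 1 and 1.44 in coculture 2, mostly Tagln, with Col3a1 listed at 0. Neither list says how much CT26 RNA a library held, since no library of CT26 cells alone was analysed here. The mast cell and granulocyte list was examined because mast cells also make prostaglandin D2. Of its 11 markers 8 were listed at 0 throughout, among them Cpa3 and Kit, and the list summed to 1.44 FPKM in mock 1 against 2.41 in coculture 1, and 0.162 FPKM in mock 2 against 2.73 in coculture 2, nearly all from S100a8.

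The 10 genes behaved unlike one another in coculture. Ptgs2 and Ptges, which together give the inducible route to prostaglandin E2, stood higher in both pairs. Hpgds and Alox5 stood lower in both pairs, and the remaining genes differed little or were barely detected. Each difference is the coculture value minus that of the mock library of its pair, on a log2(FPKM + 1) scale that understates the change of low genes. They were tested in limma over the 10202 genes for which 2 or more libraries reached 1 FPKM. Of the 10 genes, 8 passed this filter, Ptges through its coculture libraries alone, so that counts over the 8 describe them and support nothing further. None of them was called at an adjusted p under 0.05, where 0.127% of all genes tested were called higher and 0% lower. At an unadjusted limma p under 0.05, 2 of the 8 were higher (5.26% of all genes) and 2 were lower (9.45% of all genes). The labels do not say that the replicates came from separate cultures, so the p-values cover the spread among the 4 libraries alone, which may be technical.

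**Figure D1:**
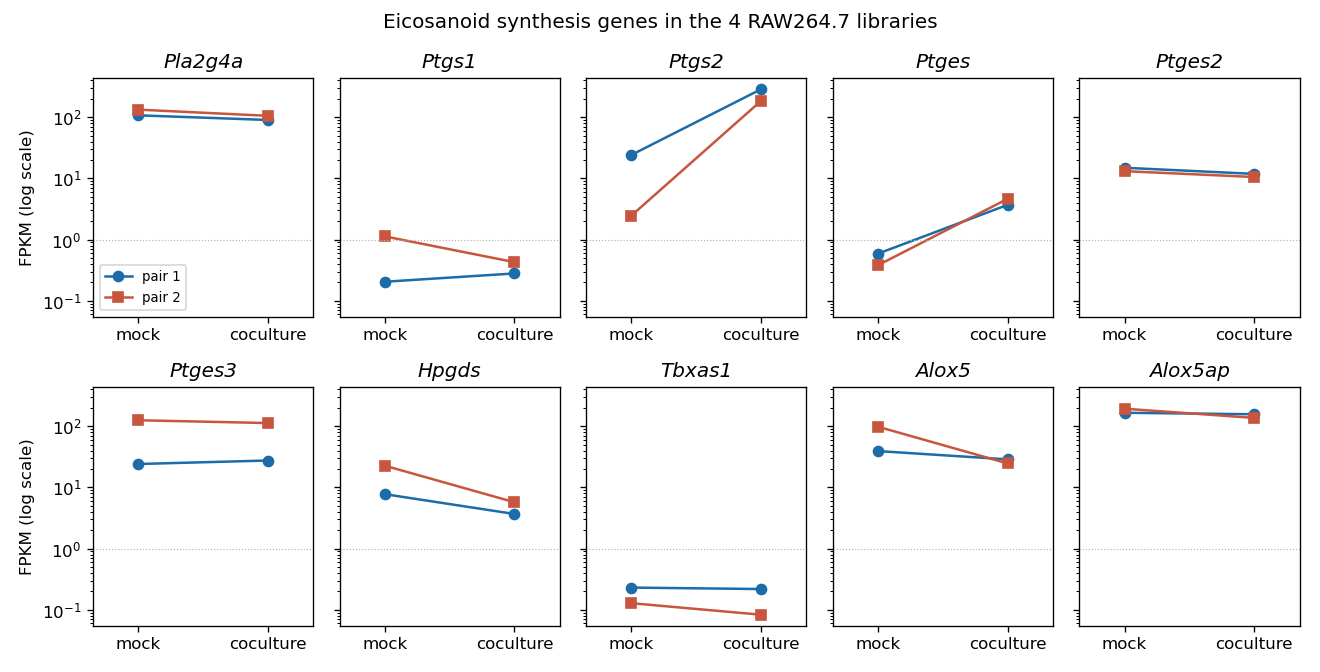
FPKM (log axis) of the 10 genes in the mock and coculture libraries, with a line joining the libraries of a pair and a dotted line at 1 FPKM. Ptgs2 and Ptges are higher in coculture in both pairs, Hpgds and Alox5 are lower, and Ptgs1 and Tbxas1 lie near or below the dotted line.

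Ptgs2, which encodes inducible cyclooxygenase-2, measured 24.3 FPKM in mock 1 against 288 in coculture 1, and 2.47 FPKM in mock 2 against 185 in coculture 2. Both coculture libraries lay above both mock libraries, and by ratio the mock libraries lay further apart than the coculture libraries. Such comparisons cross the pairs, which may have been normalized separately, so they do not measure agreement between replicates. The ratio of FPKM was 11.8 in pair 1 and 75.0 in pair 2. Ranked by FPKM among all 22554 genes, Ptgs2 moved from place 3474 to place 159 in pair 1 and from place 9221 to place 281 in pair 2. Its log2 difference was 3.51 in pair 1 and 5.75 in pair 2, with a mean of 4.63 ± 0.54 (limma's moderated standard error, n = 2 pairs, limma adjusted p = 0.0907). Only 4 of the genes tested had a larger mean difference. After median centring of each library the limma adjusted p was 0.0230, and over the other settings that gave a test it ran from 0.0735 to 0.989.

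Ptgs1, which encodes the constitutive cyclooxygenase-1, was barely detected. It measured 0.205 FPKM in mock 1 against 0.280 in coculture 1, and 1.13 FPKM in mock 2 against 0.428 in coculture 2. These levels correspond to roughly 12, 18, 69 and 20 reads in the same order. The pairs went in opposite directions, and the gene was below the filter and not tested. Within each library, the ratio of Ptgs2 to Ptgs1 FPKM was 119 in mock 1 and 1028 in coculture 1, against 2.19 in mock 2 and 433 in coculture 2. Ptgs2 far exceeded Ptgs1 per length in both coculture libraries and in mock 1 as well, while in mock 2 the levels of the 2 genes were of the same order.

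Ptges encodes microsomal prostaglandin E synthase-1, the inducible enzyme usually paired with cyclooxygenase-2. It measured 0.589 FPKM in mock 1 against 3.70 in coculture 1, and 0.382 FPKM in mock 2 against 4.64 in coculture 2, or roughly 36, 236, 24 and 223 reads. The mock libraries both lay under 1 FPKM while the coculture libraries lay close to each other, well above both. This comparison too crosses the pairs, which may have been normalized separately. The log2 difference was 1.56 in pair 1 and 2.03 in pair 2, with a mean of 1.80 ± 0.22 (n = 2 pairs, limma adjusted p = 0.101). The ratio of FPKM, which is free of the pseudocount, was 6.28 in pair 1 and 12.1 in pair 2. A gene that reaches the filter through 1 group alone, as Ptges did, has to differ between the groups. After median centring its limma adjusted p was 0.0331, and over the other settings that gave a test it ran from 0.0855 to 0.99997.

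Ptges2 and Ptges3 encode the other proteins named as prostaglandin E synthases, and Ptges3 is better known as p23, a cochaperone of HSP90. Ptges2 measured 14.9 FPKM in mock 1 against 11.9 in coculture 1, and 13.2 FPKM in mock 2 against 10.6 in coculture 2. Its mean log2 difference was -0.30 ± 0.14 (limma adjusted p = 0.394), nearly the same in both pairs (-0.31 and -0.29). Ptges3 measured 24.2 FPKM in mock 1 against 27.6 in coculture 1, and 126 FPKM in mock 2 against 113 in coculture 2, a mean log2 difference of 0.02 ± 0.14 (limma adjusted p = 0.964) whose sign differed between the pairs. The levels of Ptges3 differed far more between the tables than between the conditions. The tables list different sets of genes, and RefSeq annotates a pseudogene of it, Ptges3-ps. Whether sharing of reads bears on the level of Ptges3 was not tested, and that level is uncertain. Ptges remained the least abundant of the 3 synthase genes per length in every library, although the ratio of Ptges2 to Ptges FPKM went from 25.4 to 3.21 in pair 1 and from 34.4 to 2.27 in pair 2.

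A rule of size asked for at least a 2-fold difference in the same direction in both pairs. By it Ptgs2 and Ptges were the genes of the 8 that stood higher, against 1.02% of all genes tested. Ptges passed the filter through its coculture libraries alone, so this count describes the 8 and supports nothing further. None of the 8 was 2-fold lower in both pairs by this rule, against 0.353% of all genes. With the size set aside, 2 of the 8 were higher in both pairs (21.5% of all genes tested) and 5 were lower in both pairs (42.2% of all genes tested). The median difference over all genes tested was -0.07.

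**Figure D2:**
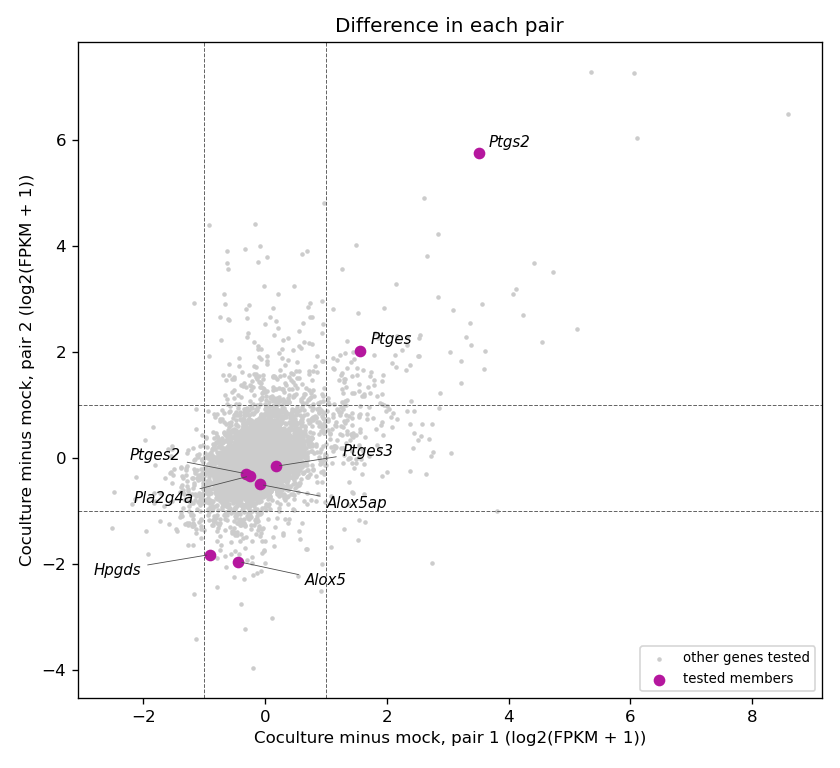
Difference in pair 1 (horizontal) and pair 2 (vertical), both coculture minus mock in log2(FPKM + 1), for the 8 tested members (coloured) and the other genes tested (grey), with dashed lines at 2-fold. Ptgs2 at 3.51 and 5.75 and Ptges at 1.56 and 2.03 lie past the dashed lines in both pairs, while Hpgds and Alox5 are past it in pair 2 alone.

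The start regions of the cyclooxygenase genes and of Ptges are shown because Ptgs2 and Ptges stood higher together while Ptgs1 stayed near the detection limit. They are RefSeq sequences on build GRCm38.p6, from 250 bases before to 30 bases after an annotated start site, read 5′ to 3′ on the gene's strand. Capitals mark matches, on either strand, to any of 7 motifs. These were the E-box CACGTG, the cyclic AMP response element half-site ACGTCA, the GC box GGGCGG, the TATA box TATAAA, the AP-1 site TGANTCA, the PU.1-type core GAGGAA, and the NF-kappaB consensus. The windows are chr1:150099781-150100060 on the plus strand for Ptgs2, chr2:30903268-30903547 on the minus strand for Ptges and chr2:36230176-36230455 on the plus strand for Ptgs1.
Ptgs2: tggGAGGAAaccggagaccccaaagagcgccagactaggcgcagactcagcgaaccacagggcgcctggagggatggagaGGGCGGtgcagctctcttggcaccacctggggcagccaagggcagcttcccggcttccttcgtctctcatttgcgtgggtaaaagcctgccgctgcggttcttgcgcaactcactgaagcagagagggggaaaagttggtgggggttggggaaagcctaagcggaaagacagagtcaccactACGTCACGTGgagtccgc
Ptges: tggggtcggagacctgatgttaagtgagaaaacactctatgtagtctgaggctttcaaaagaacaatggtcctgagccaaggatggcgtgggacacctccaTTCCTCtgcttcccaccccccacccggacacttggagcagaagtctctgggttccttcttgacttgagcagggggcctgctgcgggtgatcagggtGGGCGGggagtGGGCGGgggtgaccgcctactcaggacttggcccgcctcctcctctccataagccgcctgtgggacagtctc
Ptgs1: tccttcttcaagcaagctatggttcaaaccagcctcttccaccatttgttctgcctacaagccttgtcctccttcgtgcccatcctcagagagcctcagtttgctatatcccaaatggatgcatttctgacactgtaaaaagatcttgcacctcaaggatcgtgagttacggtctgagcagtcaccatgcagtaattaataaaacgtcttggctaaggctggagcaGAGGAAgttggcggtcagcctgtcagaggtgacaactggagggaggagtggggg
In Ptgs2 a half-site at position 13 and an E-box at position 17 after the annotated start overlap in 1 run of capitals, and a GC box begins at position -170 and a PU.1-type core at -247. In Ptges, GC boxes begin at positions -53 and -42, with a PU.1-type core on the other strand at -149, and the Ptgs1 window held a PU.1-type core at -24. The background was 32851 RefSeq windows of this length, with those of 1 chromosome left out. Of these windows, 6.79% held the E-box, 7.26% the half-site, 34.7% the GC box and 13.1% the TATA box. The AP-1 site was held by 7.46%, the PU.1-type core by 26.0% and the NF-kappaB consensus by 7.94%. The matches of Ptgs2 and Ptges had the GC box and the PU.1-type core in common, both frequent in the background windows. The window of Alox5, which stood lower in coculture, held both as well. Windows were found for 9 of the 10 genes, all but Alox5ap. The half-site was found in Ptgs2 alone of these 9, and the E-box in Ptgs2 and Ptges2. A match is a description of letters and not a binding site.

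Upstream of both branches, Pla2g4a encodes cytosolic phospholipase A2 alpha, which frees arachidonic acid. It measured 108 FPKM in mock 1 against 90.4 in coculture 1, and 133 FPKM in mock 2 against 106 in coculture 2, so that it was among the abundant genes in all 4 libraries (places 434 to 830). Its log2 difference was -0.25 in pair 1 and -0.33 in pair 2, a mean of -0.29 ± 0.11 (limma adjusted p = 0.344). Among the protein-coding and long noncoding genes of RefSeq GRCm38.p6, Pla2g4a and Ptgs2 are neighbours on chromosome 1. Only Ptgs2os, a long noncoding gene, lies between them, and other classes of gene were not considered. Ptgs2os did not exceed 0.297 FPKM in any library. The FPKM of Ptgs2 was 0.225 times that of Pla2g4a in mock 1 and 0.0185 times in mock 2, and was 3.18 and 1.76 times that of Pla2g4a in coculture 1 and 2. The order of the neighbours by level per length was therefore opposite in mock and coculture.

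On the side of prostaglandin D2, Hpgds encodes hematopoietic prostaglandin D synthase. It measured 7.76 FPKM in mock 1 against 3.68 in coculture 1, and 22.7 FPKM in mock 2 against 5.73 in coculture 2. Both coculture libraries lay below both mock libraries, across pairs that may have been normalized separately. The FPKM were 2.11-fold lower in pair 1 and 3.96-fold lower in pair 2, and the log2 difference of -0.90 in pair 1 missed the 2-fold rule through the pseudocount. The mean was -1.36 ± 0.26 (limma adjusted p = 0.182), and 20 of the genes tested had a lower mean. The ratio of Ptges to Hpgds FPKM was 0.0759 in mock 1 and 0.0169 in mock 2, against 1.01 in coculture 1 and 0.810 in coculture 2. Tbxas1, the thromboxane synthase gene, was near the detection limit with 0.230 FPKM in mock 1 against 0.218 in coculture 1 and 0.128 FPKM in mock 2 against 0.0830 in coculture 2, or 9 to 32 reads, and was not tested.

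In the leukotriene branch, Alox5, which encodes 5-lipoxygenase, measured 39.3 FPKM in mock 1 against 28.8 in coculture 1, and 98.3 FPKM in mock 2 against 24.7 in coculture 2. The coculture libraries lay close together and below both mock libraries, while the mock libraries differed from each other. Such closeness is across pairs that may have been normalized separately. The log2 difference was -0.44 in pair 1 and -1.95 in pair 2, a mean of -1.19 ± 0.38 (limma adjusted p = 0.294). In pair 2 only 19 genes tested had a lower difference than Alox5, against 1403 in pair 1. With 1 difference per pair, the gap between the pairs could not be tested.

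Alox5ap, which encodes FLAP, the membrane protein that presents arachidonic acid to 5-lipoxygenase, was the most abundant of the 10 genes in both mock libraries. It measured 166 FPKM in mock 1 against 157 in coculture 1, and 194 FPKM in mock 2 against 137 in coculture 2. Its log2 difference was -0.08 in pair 1 and -0.49 in pair 2, a mean of -0.29 ± 0.15 (limma adjusted p = 0.439). The ratio of Alox5ap to Alox5 FPKM was 4.23 in mock 1 against 5.46 in coculture 1, and 1.97 in mock 2 against 5.55 in coculture 2. In both coculture libraries Ptgs2 took the place of Alox5ap as the most abundant of the 10 genes. The FPKM of Ptgs2 was 0.617 and 0.0252 times that of Alox5 in mock 1 and 2, and 9.995 and 7.51 times in coculture 1 and 2. Of the summed FPKM of the 10 genes, Ptgs2 made up 6.30% in mock 1 against 47.0% in coculture 1, and 0.419% in mock 2 against 31.6% in coculture 2.

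**Figure D3:**
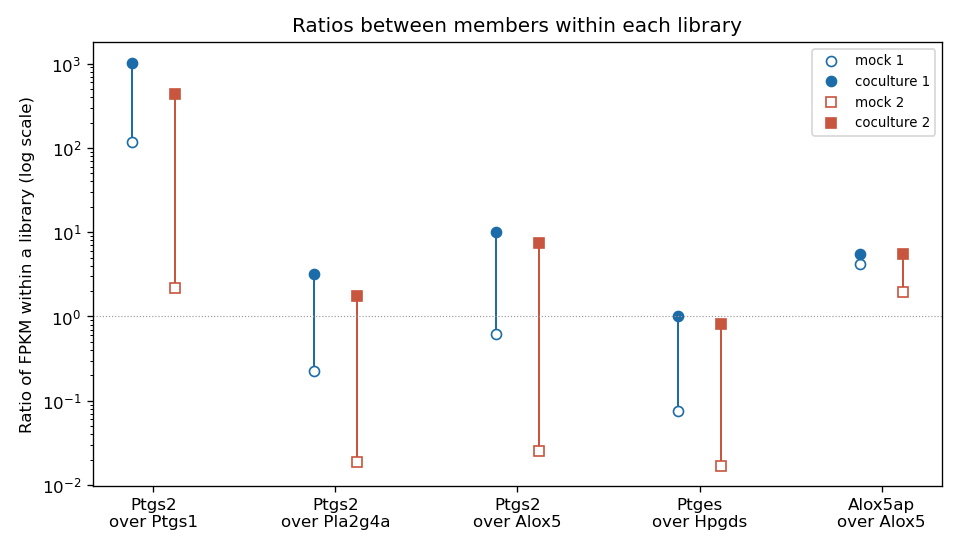
Ratio of FPKM between members within a library (log axis) for 5 pairs of genes, with mock libraries as open symbols, coculture libraries as filled symbols and a dotted line at equal levels. The ratios of Ptgs2 to Pla2g4a and to Alox5 lie below 1 in both mock libraries and above 1 in both coculture libraries.

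Other genes of the pathway were examined in 4 lists, and none of their 35 tested genes was called in limma or was 2-fold different in both pairs. At an unadjusted limma p under 0.05, 3 were higher and 9 lower, against 5.26% and 9.45% of all genes tested. The counts of list genes on the same side in both pairs are to be read against 21.5% of all genes higher and 42.2% lower in both pairs. Of 34 genes of arachidonate release and reacylation, 16 were tested, with 5 higher and 5 lower in both pairs and a median difference of 0.0041, against -0.07 over all genes. Pla2g5, a secreted phospholipase A2, measured 3.35 FPKM in mock 1 against 6.20 in coculture 1, and 7.61 FPKM in mock 2 against 25.8 in coculture 2 (1.18 ± 0.26, limma adjusted p = 0.208). Acsl4, which couples arachidonic acid to coenzyme A, measured 29.2 FPKM in mock 1 against 56.6 in coculture 1, and 39.4 FPKM in mock 2 against 69.0 in coculture 2 (0.86 ± 0.12, limma adjusted p = 0.114). Daglb, a diacylglycerol lipase, differed by -0.82 ± 0.16, and Lpcat1, a lysophospholipid acyltransferase, by -0.78 ± 0.15.

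Of 12 other prostanoid synthase, breakdown and transport genes, 6 were tested, with 0 higher and 4 lower in both pairs (21.5% and 42.2% of all genes) and a median of -0.18. Cbr3 and Cbr1, which encode carbonyl reductases, differed by -0.56 ± 0.15 and -0.40 ± 0.18. The prostacyclin synthase gene Ptgis was listed at 0 in all libraries, and Hpgd, which encodes the enzyme that inactivates prostaglandins, measured 0.189 FPKM in mock 1 against 0.0358 in coculture 1, and 0.959 FPKM in mock 2 against a listed 0 in coculture 2. Akr1b3 was listed at 0 in both libraries of pair 2, against 22.8 FPKM in mock 1 and 18.8 in coculture 1. Its difference therefore rests on pair 1. The mean of -0.13 for Akr1b3 counts pair 2 as a difference of 0, and it enters the list median as a middle value. Ptgis, Hpgd and Akr1b3 were chosen after their values were seen.

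Of 21 other lipoxygenase and leukotriene genes, 9 were tested, with 1 higher and 4 lower in both pairs, near the 42.2% of all genes that were lower, and a median of -0.04. Abcc1, a transporter that exports leukotriene C4, measured 92.4 FPKM in mock 1 against 125 in coculture 1, and 53.2 FPKM in mock 2 against 99.7 in coculture 2 (0.66 ± 0.15, limma adjusted p = 0.217). Mgst3, a microsomal glutathione transferase, had differences of -0.20 and -2.20 in pairs 1 and 2, and Ephx1, a microsomal epoxide hydrolase, of -0.34 and -1.24. Alox15, also chosen after its values were seen, did not exceed 0.0511 FPKM, and none of the other lipoxygenase genes listed passed the filter.

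Of 13 receptor genes, 4 were tested, with 0 higher and 2 lower in both pairs (42.2% of all genes lower) and a median of -0.45. Cysltr1, a cysteinyl leukotriene receptor, measured 3.90 FPKM in mock 1 against 2.10 in coculture 1, and 18.6 FPKM in mock 2 against 6.70 in coculture 2 (-1.005 ± 0.23, limma adjusted p = 0.210). Ptger1, a prostaglandin E2 receptor, measured 23.3 FPKM in mock 1 against 14.7 in coculture 1, and 22.7 FPKM in mock 2 against 13.2 in coculture 2 (-0.68 ± 0.13, limma adjusted p = 0.174). Ptger4, another receptor for the same prostaglandin, differed by 0.09 and -0.14 in the pairs. Ptger4 and Ptger2 were chosen after their values were seen. Ptger2 was below the filter, with 0.0173 FPKM in mock 1 against 0.654 in coculture 1, and a listed 0 in mock 2 against 0.0650 in coculture 2.

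**Figure D4:**
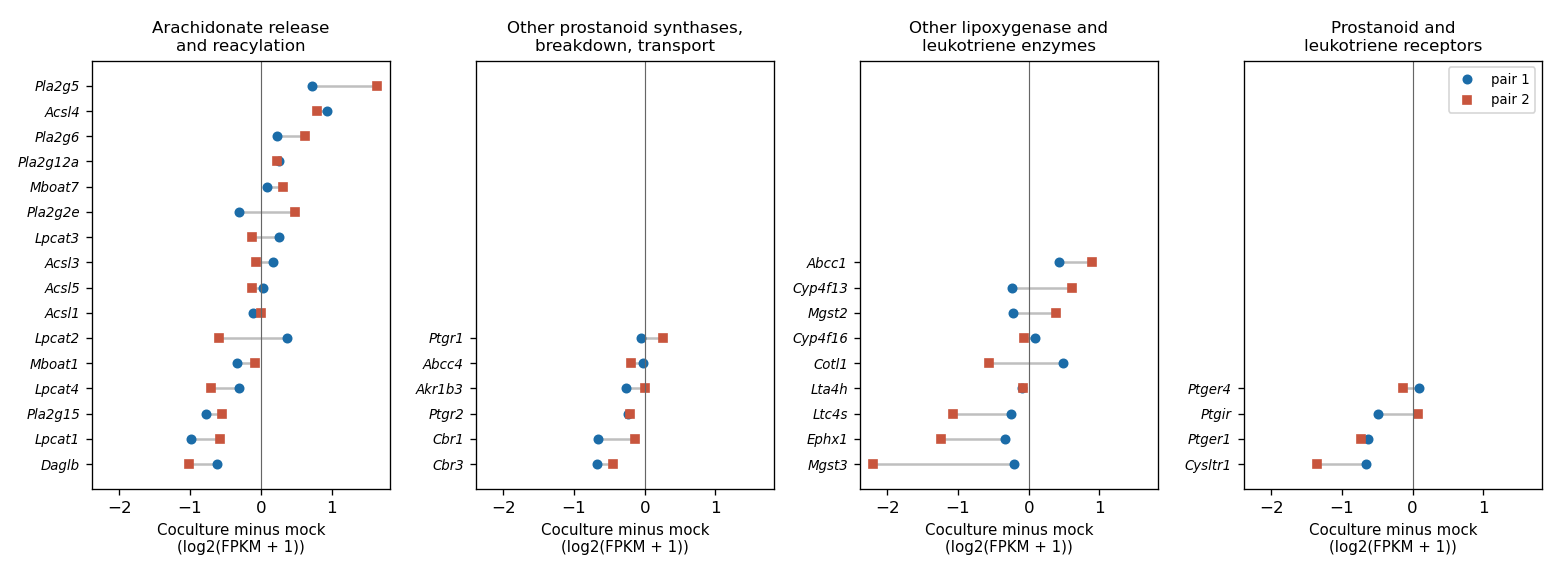
Coculture minus mock in log2(FPKM + 1) for the tested genes of the 4 lists, with a circle for pair 1 and a square for pair 2 joined by a line. Pla2g5, Acsl4 and Abcc1 lie to the right of 0 in both pairs, and Cysltr1, Ptger1, Daglb and Lpcat1 to the left.

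The genes whose differences were nearest to those of Ptgs2 over the 2 pairs were Rgs16, Myc, Odc1, Ier3 and Acod1, at distances of 1.23 to 2.39 log2 units, and no tested gene lay within 0.25. Rgs16, the nearest, measured 53.3 FPKM in mock 1 against 333 in coculture 1, and 1.44 FPKM in mock 2 against 71.7 in coculture 2. For Ptges the nearest were Abca1, Cda, Cxcl3, Osm and Micall2, at 0.0224 to 0.263, and 4 genes lay within 0.25. The pseudocount weighs on these distances where a gene is low in mock, so a short distance is not an equal fold change. Abca1 measured 0.387 FPKM in mock 1 against 3.15 in coculture 1, and 2.30 FPKM in mock 2 against 12.6 in coculture 2. Cxcl3 was listed at 0 in both mock libraries. For Alox5ap the nearest were Sergef, Laptm4a, Oaz3, Pgp and Cmc2, but 992 genes lay within 0.25, so this order singles out none. These distances rest on 2 differences per gene and describe likeness in these libraries alone.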

How the data were processed

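Values were used as deposited. Per the file headers and labels, the authors deposited FPKM in 2 tables, each with 1 mock and 1 coculture library. The submitters' processing notes name Trim Galore, Subread and featureCounts, and the build hg38, although the gene symbols are mouse. The sources used here give no versions, annotation, gene lengths or totals. Unnamed rows (23) and repeated names (106 names on 287 rows) of the first table were left out, together 1.07% or less of the FPKM in each library. Names found in only 1 of the tables were left out as well, which kept 22554 names from tables of 23427 and 25239 rows. The share of FPKM on those names was not computed.

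A gene was tested if 2 or more libraries had 1 FPKM or more, and log2(FPKM + 1) was compared with limma 3.58.1 in R 4.3.3 (two-sided, prior variance trended on expression). The replicate pair was a block, because each pair has a table of its own; same-numbered libraries also deviated together (r = 0.76 across genes). Residual and prior degrees of freedom were 1 and 3.43. P-values were Benjamini-Hochberg adjusted over all genes tested, and values after ± are limma's moderated standard errors. These errors and the p-values borrow from the spread of all genes tested. They can be smaller or larger than the spread of a gene's own pairs. The fit was also run on simulated data drawn from its own variance model, which cannot show how well that model suits these libraries. Depth and reads were estimated from the step of low FPKM, with exon lengths from GENCODE M21, and are approximate. Ranks and within-library ratios compare FPKM as deposited. Promoter windows came from RefSeq, by symbol.

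The members and lists were chosen with earlier results of these data known. Named genes were the 10 members, in each other list the genes called or 2-fold different in both pairs and otherwise the 2 largest differences per direction, and the 5 genes nearest in pattern to Ptgs2, Ptges and Alox5ap; Ptgis, Hpgd, Akr1b3, Alox15, Ptger4 and Ptger2 are named outside this rule, after their values were seen. Alternatives were other pseudocounts, filters and scalings, no block, no trend, and leaving out each library or pair.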

Additional observations from a re-analysis of the deposited data

How the results depend on the processing

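The direction of Ptgs2, Ptges, Ptges2, Pla2g4a, Hpgds, Alox5 and Alox5ap was the same under all alternatives that kept the gene; Ptges was removed by a filter of 5 FPKM. Ptges3 turned to -0.038 after rescaling to a common total, and ranged from -1.15 to 1.18 when a library or pair was left out. The count of members called was 2 (Ptgs2 and Ptges) after median centring and 0 otherwise, and it stayed at 0 with no replicate block and without any single library. The count of all genes called, 13, became 26 with at least 5 FPKM, 26 after rescaling, 103 after median centring, 22 with a pseudocount of 0.1, 1 with no replicate block, 1 without trended variance, 0 with no filter (unadjusted, 530 genes higher and 984 lower) and 0 to 0 without any single library, unblocked. In limma at an unadjusted p under 0.05, leaving out a library left 141 to 275 genes higher and 35 to 301 lower. Members 2-fold higher in both pairs numbered 1 with at least 5 FPKM, and members 2-fold lower numbered 1 (Hpgds) with a pseudocount of 0.1 and 0 to 2 in a single pair. Medians without a library or pair ranged from -0.34 to 0.23 for arachidonate release, -0.28 to -0.16 for other prostanoid genes, -0.20 to -0.019 for other leukotriene genes and -0.57 to -0.090 for receptors. The prostanoid median was -0.11 after median centring and -0.065 with no filter, and the receptor median -0.011 with no filter, where more genes near 0 FPKM enter. The cause of the other shifts was not tested. Leaving out 1 library crosses the tables, which may have been normalized separately. Reads of 9 to 69 limit Ptgs1 and Tbxas1.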
